A study of Mus musculus with 10 samples.

Results

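The 10 genes described here encode the 5 NF-κB subunits (Nfkb1, Nfkb2, Rel, Rela and Relb) and 5 proteins of the IκB family (Nfkbia, Nfkbib, Nfkbie, Nfkbiz and Bcl3). They were chosen by symbol, and all 10 were found once each among the 38922 genes of the tables. Whole-liver RNA was profiled by RNA-seq in wild-type male C57BL/6N mice that were 6 weeks old. A single intraperitoneal injection of saline was given to 5 mice, and the other 5 mice received 0.5 μg per g of body weight of CD95-Ab, an antibody that activates the death receptor CD95 (Fas). All livers were taken 6 h after injection, with 1 library per mouse. The injection is a model of acute liver injury through death receptor signalling, here with a single dose and a single time point.

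NF-κB proteins are transcription factors that work as dimers. In unstimulated cells the classical IκB proteins hold these dimers in the cytoplasm, and signals from receptors such as those for tumor necrosis factor lead to phosphorylation and destruction of IκB and to entry of the dimers into the nucleus. The genes of several subunits and inhibitors are themselves targets of NF-κB, which makes the pathway a textbook case of feedback. In the liver, NF-κB activity is known for its part in inflammation and in protecting hepatocytes from death receptor signals.

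Total counts ranged from 25965699 to 62097636 per mouse, and 3 counts corresponded to between 0.0483 and 0.116 counts per 1000000 (CPM) before TMM adjustment of the totals. Each of the 10 genes had at least 23 counts in every saline-injected mouse, so each was measured in both groups and passed the filter on low counts without relying on CD95-Ab. Whole liver was sequenced, so more cells of a type and more RNA per cell cannot be told apart. Markers of hepatocytes were present at between 101396 and 124440 CPM in saline livers (sum of 8 genes), as the tissue label implies, and at between 46519 and 82528 CPM after CD95-Ab, with 4 of the 8 lower. In this paragraph, higher and lower refer to the test given below, by which 25.4% of all tested genes were higher and 22% lower. Markers of blood cells moved with the groups. The summed level of 9 neutrophil genes lay between 4.19 and 10.7 CPM in saline mice and between 102 and 413 CPM after CD95-Ab, and all 5 that could be tested rose (Ly6g, Mpo, Elane and Camp had too few counts). That of 7 monocyte and macrophage genes lay between 45.0 and 96.8 CPM and between 286 and 523 CPM, with 6 of 7 higher. Of 7 Kupffer cell genes 2 rose, Cd5l and Marco, and their sum overlapped between groups, from 131 to 447 CPM and from 244 to 586 CPM. Higher after CD95-Ab were also 5 of 7 T cell, 5 of 6 NK cell, 4 of 6 B cell, 3 of 6 dendritic cell, 6 of 7 sinusoidal endothelial, 4 of 6 stellate, 3 of 5 cholangiocyte and 6 of 6 erythrocyte genes, and no marker of these cell types was at 0 throughout a group. Part of these counts rests on genes that passed the filter on low counts through the CD95-Ab mice: at least 10 counts in every saline mouse were reached by 2 T cell, 1 NK cell, 1 B cell and 2 dendritic cell genes. Among genes with such counts, 4 of 4 neutrophil and 3 of 4 monocyte and macrophage genes were higher. So were 1 of 2 T cell genes, the 1 NK cell gene and the 1 B cell gene, but 0 of 2 dendritic cell genes. Of all tested genes with such counts, 22.6% were higher. The B cell sums overlapped between the groups (1.04 to 5.84 CPM and 5.58 to 19.1 CPM). The erythrocyte sum reached between 1063 and 33976 CPM after CD95-Ab, from between 135 and 324 CPM. Of 10 RNAs chosen as lacking a poly(A) tail, histone mRNAs among them, 6 could be tested. Of these, 3 were higher and 1 lower, beside 25.4% and 22% of all tested genes. Whether the histone mRNAs carried a tail here was not tested. Rny1 and Rny3 were at 0 in all mice, and the sum, 73.2 to 166 CPM in saline mice, was 417 to 1434 CPM after CD95-Ab. Rn7sk made up nearly all of that rise, from 0.39 ± 0.24 to 742 ± 354 CPM (mean ± SD, n = 5 mice each). Rpph1 rose as well, from 0.05 ± 0.03 to 2.92 ± 1.38 CPM, with saline values near or below the level of 3 counts. Without Rn7sk the sums overlapped, at 73.0 to 165 CPM in saline mice and 62.7 to 134 CPM after CD95-Ab. These sums consisted mostly of Hist1h1c and Hist1h2bc (means of 42.6 and 72.0 CPM in saline mice), so the rise of Rpph1 does not show in them. The part of these shifts in the changes given below was not tested.

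All 10 genes were higher after CD95-Ab than in the saline-injected controls, at a false discovery rate (FDR, adjusted over all 13719 tested genes) of 0.05 or less in edgeR's quasi-likelihood test. Among all tested genes 25.4% were called higher and 22% lower (47.3% in either direction). Below, levels are means ± SD over the 5 mice of a group, and log2 fold changes of CD95-Ab relative to saline are given ± their standard error (SE) from edgeR. For each of the 10 genes every CD95-Ab mouse lay above every saline mouse, which held for 18.6% of tested genes. Relb, Nfkb2, Nfkbiz, Nfkbie, Rel and Nfkb1 also passed the log2 fold change threshold of 2 used by the study, as did 6.59% of tested genes upwards, while Bcl3, Nfkbia, Nfkbib and Rela did not. The median log2 fold change was 2.51 for the 10 genes and 0.01 for all tested genes. The rise was thus shared by activating subunits and inhibitors, and ranged from 2.51-fold for Rela to 14.3-fold for Relb.

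**Figure D1:**
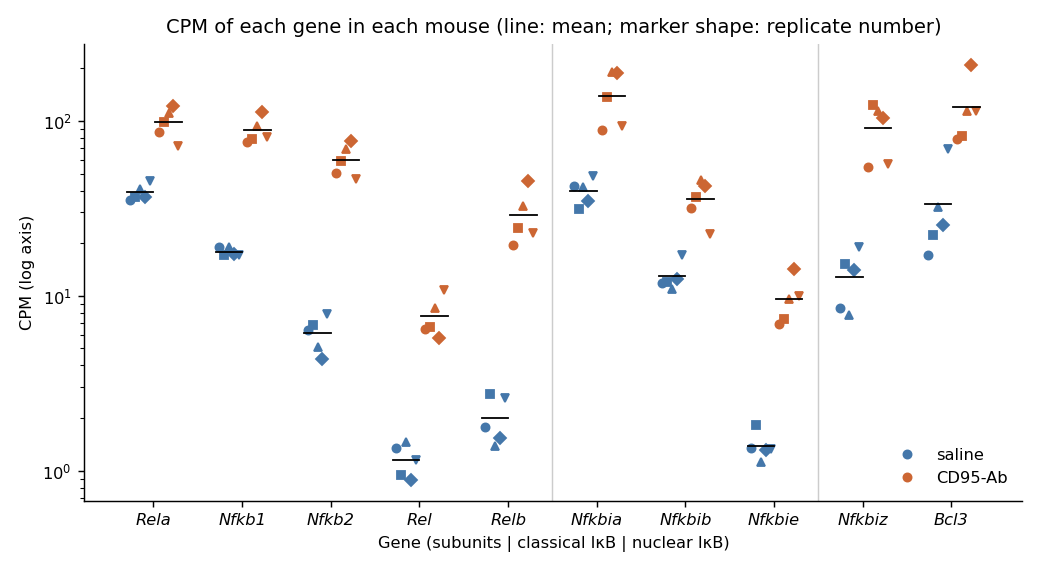
CPM (log axis) of the 10 genes in each of the 5 saline-injected (blue) and 5 CD95-Ab-injected (orange) mice, with 1 marker shape per replicate number and a line at each group mean. For every gene all orange points lie above all blue points, with the narrowest gap for Bcl3 (69.3 CPM in the highest saline mouse, 78.4 CPM in the lowest CD95-Ab mouse).

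Since the 10 genes rose together, the sequence just before their starts was examined for the 10-base κB consensus, the DNA element bound by NF-κB dimers. RefSeq promoters of GRCm38.p6, each from 250 bases before to 50 bases after a start, were available for 7 of the 10 genes (9 windows, of which 3 belong to Nfkb2). The genes without an entry were Nfkb1, Relb and Nfkbiz. The consensus was found on either strand in 7 of these 9 windows and in 5 of the 7 genes (Nfkb2, Rel, Nfkbia, Nfkbie and Bcl3), and in 8.46% of all 32851 windows. The windows are not independent: the later ones of Nfkb2 overlap, and the match at bases 46305705 to 46305714 was counted in both. The only match of Bcl3 lies after its start. The windows of the 7 genes held between 56.3% and 75.0% G and C, above the median of 52.7%. Among all windows with 56.3% or more, 12.8% held a match. This cut was set by the lowest window, that of Nfkbib, and the others held more, so the 12.8% is not matched window by window. No match was found in the windows of Rela and Nfkbib, which says only that these letters are not there. A match is a description of sequence and not a binding site.

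At least 1 match of each of these 5 genes is shown, because these sequences carry the comparison; those of the other Nfkb2 windows are left out. Each is given on the strand of the gene with up to 10 bases on either side, the match in capitals, and the distance of its first base from the start of transcription.
Nfkb2, 39 bases before the start (plus strand), chr19:46304688-46304717: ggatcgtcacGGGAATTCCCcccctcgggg
Nfkb2, 11 bases before the start (plus strand), chr19:46304716-46304745: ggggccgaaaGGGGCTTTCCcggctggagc
Nfkbia, 29 bases before the start (minus strand), chr12:55492657-55492686: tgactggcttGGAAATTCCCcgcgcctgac
Rel, 92 bases before the start (minus strand), chr11:23771042-23771071: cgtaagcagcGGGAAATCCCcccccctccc
Nfkbie, 106 bases before the start (plus strand), chr17:45555584-45555613: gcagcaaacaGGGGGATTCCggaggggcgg
Bcl3, base 3 of the transcript (minus strand), chr7:19822734-19822763: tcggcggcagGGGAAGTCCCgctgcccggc
The matches of Bcl3, of Rel and the more distant one of Nfkb2 read as the consensus on both strands, and the latter 2 overlap a further match shifted by 1 base. With 3 matches, 2 of them overlapping, the first Nfkb2 window belongs to the 0.186% of all windows with 3 or more. For the classical inhibitors Nfkbia and Nfkbie, both of which rose, the 250 bases before the start are given in full so that the match can be seen in its surroundings.
Nfkbia, chr12:55492648-55492897, minus strand: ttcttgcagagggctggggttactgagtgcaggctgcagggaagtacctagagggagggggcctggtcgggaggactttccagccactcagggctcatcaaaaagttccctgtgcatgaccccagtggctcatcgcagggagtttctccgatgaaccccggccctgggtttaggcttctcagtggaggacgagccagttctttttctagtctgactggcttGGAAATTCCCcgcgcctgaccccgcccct
Nfkbie, chr17:45555450-45555699, plus strand: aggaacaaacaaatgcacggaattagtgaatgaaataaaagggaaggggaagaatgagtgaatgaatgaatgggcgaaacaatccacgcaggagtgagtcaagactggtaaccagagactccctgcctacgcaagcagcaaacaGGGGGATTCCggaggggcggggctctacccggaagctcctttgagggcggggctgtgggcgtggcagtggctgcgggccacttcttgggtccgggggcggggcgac

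Among the subunits, those that carry their own transactivation domain are Rela, Relb and Rel. Rela, the main partner in the classical pathway (GRCm38 chromosome 19, 5637483 to 5648130), had 35.5, 36.8, 41.0, 36.7 and 45.3 CPM in saline replicates 1 to 5 and 86.0, 98.9, 112, 122 and 71.7 CPM in CD95-Ab replicates 1 to 5. It had the smallest change of the 10 genes, 39.1 ± 4.1 CPM against 98.1 ± 19.95 CPM, which is 1.33 ± 0.15 as log2 fold change (FDR = 3.37e-05). CD95-Ab replicate 5, the lowest of its group, was still above all saline mice.

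Relb, the partner of the processed Nfkb2 product in the alternative pathway (chromosome 7, 19606217 to 19629438), was scarce in saline mice, with 1.79, 2.76, 1.38, 1.54 and 2.60 CPM, and reached 19.5, 24.6, 32.8, 45.6 and 22.9 CPM after CD95-Ab. This was the largest change of the 10 genes (2.01 ± 0.63 CPM against 29.1 ± 10.4 CPM), with 3.84 ± 0.28 as log2 fold change (FDR = 1.81e-06). CD95-Ab mice differed among themselves by 2.34-fold, far less than the gap between the groups.

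Rel, which encodes the c-Rel subunit best known from lymphoid and myeloid cells (chromosome 11, 23736847 to 23770970), had 1.34, 0.949, 1.47, 0.885 and 1.15 CPM in saline mice and 6.45, 6.59, 8.56, 5.77 and 10.8 CPM after CD95-Ab. The means were 1.16 ± 0.25 and 7.64 ± 2.06 CPM, and the log2 fold change 2.71 ± 0.22 (FDR = 3.19e-06). The order of mice differed from that of the other subunits. CD95-Ab replicate 5 was the highest for Rel, whereas replicate 4 was the lowest for Rel and the highest for Rela, Relb, Nfkb1 and Nfkb2. Replicate 5 also had the highest sum of monocyte and macrophage markers (523 CPM, compared to between 286 and 341 CPM in the others). Replicate 3, however, was next for Rel and had the lowest of these sums among CD95-Ab mice (286 CPM). Among saline mice, replicate 3 was the highest for Rel and the lowest for this sum (45.0 CPM). A relation between Rel and these markers was not tested.

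Nfkb1 and Nfkb2 encode long precursors that are cut to DNA-binding subunits and whose uncut forms act as inhibitors. Nfkb1 (chromosome 3, 135584655 to 135691547) had 19.1, 17.1, 18.99, 17.4 and 17.1 CPM in saline mice, and 76.3, 78.4, 93.2, 113 and 80.8 CPM after CD95-Ab. Relative to its mean, its CPM varied least of the 10 genes within both groups. In FPKM, Rela varied less among saline mice (15.1 ± 0.9, against 6.98 ± 0.73 for Nfkb1). The log2 fold change of Nfkb1 was 2.30 ± 0.13 (17.9 ± 1.0 against 88.3 ± 15.3 CPM, FDR = 3.95e-07). Nfkb2 (chromosome 19, 46304320 to 46312385) had 6.37, 6.79, 5.10, 4.35 and 7.86 CPM in saline mice and 50.2, 58.7, 68.7, 76.3 and 46.8 CPM after CD95-Ab. Its means were 6.09 ± 1.39 and 60.1 ± 12.4 CPM, giving 3.30 ± 0.20 as log2 fold change (FDR = 5.21e-07). The lowest CD95-Ab mouse thus remained several times above the highest saline mouse. Of the exonic bases of Nfkb2, 299 are shared with Psd on the other strand, which had at most 48 counts in any mouse, and 531 with the antisense gene AC114539.1, which was not analysed here.

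The 3 classical inhibitors rose as well, by different amounts. Nfkbia encodes IκBα, the inhibitor that is degraded and resynthesised most rapidly (chromosome 12, 55489410 to 55492647). It had 42.6, 31.2, 42.1, 34.7 and 48.2 CPM in saline mice and 89.3, 137, 190, 189 and 93.1 CPM after CD95-Ab. CD95-Ab replicates 1 and 5 were the lowest of their group but above all saline mice. The means of Nfkbia were 39.8 ± 6.8 and 140 ± 49 CPM (log2 fold change 1.81 ± 0.24, FDR = 8.42e-05). Nfkbib, which encodes IκBβ (chromosome 7, 28758251 to 28767512), had 11.9, 12.04, 10.99, 12.5 and 17.1 CPM in saline mice and 31.96, 36.6, 46.1, 42.5 and 22.7 CPM after CD95-Ab, or 12.9 ± 2.4 and 35.96 ± 9.2 CPM (log2 fold change 1.48 ± 0.19, FDR = 8.55e-05). The groups came close in Nfkbib, where the lowest CD95-Ab mouse, replicate 5, had 22.7 CPM. A stretch of 42 exonic bases of Nfkbib lies opposite exons of Sirt2, whose counts ranged from 842 to 2489, and as the libraries are not stated to keep strand, reads there cannot be told apart. Nfkbie, which encodes IκBε (chromosome 17, 45555703 to 45563169), was the scarcest inhibitor in saline mice, with 1.34, 1.84, 1.13, 1.31 and 1.33 CPM, and had 6.90, 7.36, 9.55, 14.3 and 9.99 CPM after CD95-Ab. Its means were 1.39 ± 0.27 and 9.63 ± 2.95 CPM, and its log2 fold change was the largest of the classical inhibitors (2.79 ± 0.23, FDR = 2.95e-06).

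Nfkbiz and Bcl3 encode IκB proteins that act in the nucleus, where they bind subunits on DNA and can raise transcription. Nfkbiz (chromosome 16, 55811375 to 55838899) had 8.47, 15.2, 7.78, 13.97 and 18.9 CPM in saline mice and 54.8, 124, 114, 103 and 56.6 CPM after CD95-Ab (12.9 ± 4.7 against 90.6 ± 32.7 CPM), and rose by 2.81 ± 0.32 on the log2 scale (FDR = 2.93e-05). As for Nfkbia, CD95-Ab replicates 1 and 5 were well below the remaining mice of the group. Bcl3 (chromosome 7, 19808462 to 19822770) was the most variable of the 10 genes in both groups, with 17.2, 22.2, 32.2, 25.6 and 69.3 CPM in saline mice and 78.4, 82.5, 115, 210 and 114 CPM after CD95-Ab. Its means were 33.3 ± 20.9 and 120 ± 53 CPM, and its log2 fold change had the largest error of the 10 (1.85 ± 0.39, FDR = 0.00219). Saline replicate 5 and CD95-Ab replicate 4 stood apart upwards. Without saline replicate 5 the log2 fold change was 2.30, past the threshold of 2, and without CD95-Ab replicate 4 it was 1.51.

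**Figure D2:**
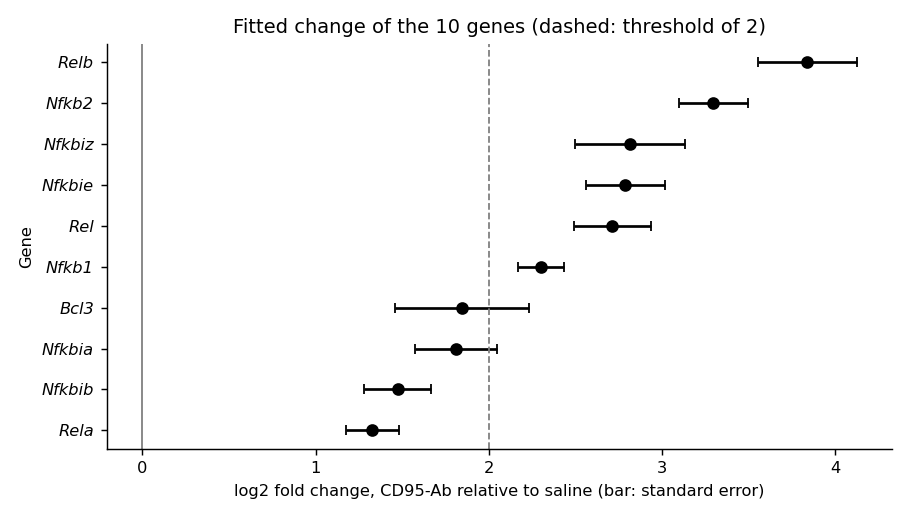
Log2 fold change of each gene in CD95-Ab relative to saline mice (points) with its SE (bars), from edgeR's fit over 5 mice per group. All 10 lie to the right of 0, from 1.33 for Rela to 3.84 for Relb, and the dashed line at 2 separates 6 genes from 4.

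The 5 livers injected with CD95-Ab differed in their levels of the 10 genes. Replicate 4 had the highest level of 6 of the 10 genes (Rela, Relb, Nfkb1, Nfkb2, Nfkbie and Bcl3), and replicate 3 of 2 (Nfkbia and Nfkbib). In CPM, replicate 1 had the lowest level of 6 (Nfkb1, Relb, Nfkbia, Nfkbie, Nfkbiz and Bcl3), and replicate 5 of 3 (Nfkb2, Rela and Nfkbib). The TMM factor that divides CPM was largest in replicate 1 (1.13) and smallest in replicate 4 (0.849) of the CD95-Ab mice. In FPKM, which carry no TMM adjustment, Nfkb1, Nfkbie and Bcl3 were lowest in replicate 2, and Nfkbia and Nfkbiz in replicate 5. Relb stayed lowest in replicate 1, and the highest mouse of each gene was the same. The highest CD95-Ab mouse exceeded the lowest in CPM by between 1.48-fold (Nfkb1) and 2.67-fold (Bcl3). Replicate 1 also had the lowest sums of neutrophil markers (102 CPM) and of erythrocyte markers (1063 CPM), while the highest of both were in replicate 3 (413 and 33976 CPM). Rn7sk was lowest in replicate 1 (355 CPM) and highest in replicate 4 (1301 CPM), and so was the B cell sum (5.58 and 19.1 CPM). The same held for the CPM of Nfkb1, Relb, Nfkbie and Bcl3. Rn7sk ranked the 5 mice in the same order as Relb, and the TMM factors ranked them in the reverse order. The part of these RNAs and of the scaling in the spread of the 10 genes was not tested. In the saline group, replicate 5 had the highest CPM of 6 of the 10 genes and the highest neutrophil sum, 10.7 CPM. It also had the smallest TMM factor of its group (0.869), which raises CPM. In FPKM it was the highest saline mouse only for Nfkbib and Bcl3.

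To set levels of different genes side by side, the FPKM values that the authors deposited were used, since these are scaled for transcript length. Nfkbia had the highest mean of the 10 mRNAs in both groups, with 26.8 ± 3.7 FPKM in saline mice and 87.0 ± 22.4 FPKM after CD95-Ab. Bcl3 followed with 20.2 ± 10.2 and 74.6 ± 28.4 FPKM, and Rela with 15.1 ± 0.9 and 35.5 ± 4.7 FPKM. The order of Nfkbia and Bcl3 is not firm in either group, since their ranges overlapped and Nfkbia was above Bcl3 in 4 of 5 saline mice and 3 of 5 CD95-Ab mice. In saline mice the ranges of Bcl3 and Rela overlapped as well. The order then ran Nfkbib (11.01 ± 1.1 FPKM), Nfkb1 (6.98 ± 0.73), Nfkbiz (3.66 ± 1.15), Nfkb2 (2.07 ± 0.48), Relb (0.94 ± 0.29), Nfkbie (0.61 ± 0.17) and Rel (0.44 ± 0.11), with overlapping ranges between Nfkbiz and Nfkb2, between Relb and Nfkbie, and between Nfkbie and Rel. After CD95-Ab the order was the same except that Nfkb1 (33.8 ± 3.8 FPKM) stood above Nfkbib (28.7 ± 5.6), in 4 of 5 mice. From Rela down to Relb, the range of each gene then overlapped that of the next. Relb, Nfkbie and Rel were again the lowest, at 12.4 ± 3.0, 3.88 ± 0.82 and 2.72 ± 0.80 FPKM.

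The makeup of subunit mRNA shifted away from Rela. Summed over the 5 subunits, FPKM rose 4.06-fold, from 25.5 ± 1.9 to 103.5 ± 11.2. The share of Rela in this sum fell from 59.2% ± 2.5 to 34.2% ± 2.7, with 55.7% as its lowest value in saline mice and 37.2% as its highest after CD95-Ab (2-sided exact permutation test, p = 0.00794, adjusted over the 5 shares 0.0132). The share of Nfkb2 grew from 8.07% ± 1.5 to 18.5% ± 0.8, and that of Relb from 3.66% ± 0.97 to 11.9% ± 1.7 (p = 0.00794 in the exact test for each, the smallest that 5 mice against 5 can give). Nfkb1 went from 27.4% ± 2.0 to 32.7% ± 2.3, with overlapping groups (exact permutation test, p = 0.0159). Rel stayed the rarest, at 1.70% ± 0.35 and 2.72% ± 1.08 (exact permutation test, p = 0.0476, adjusted 0.0476). This last difference rests on few mice: without CD95-Ab replicate 5 it was 0.58 instead of 1.02 percentage points, and the adjusted p exceeded 0.05 when any mouse other than saline replicates 1 and 3 and CD95-Ab replicate 4 was left out, reaching 0.0952.

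**Figure D3:**
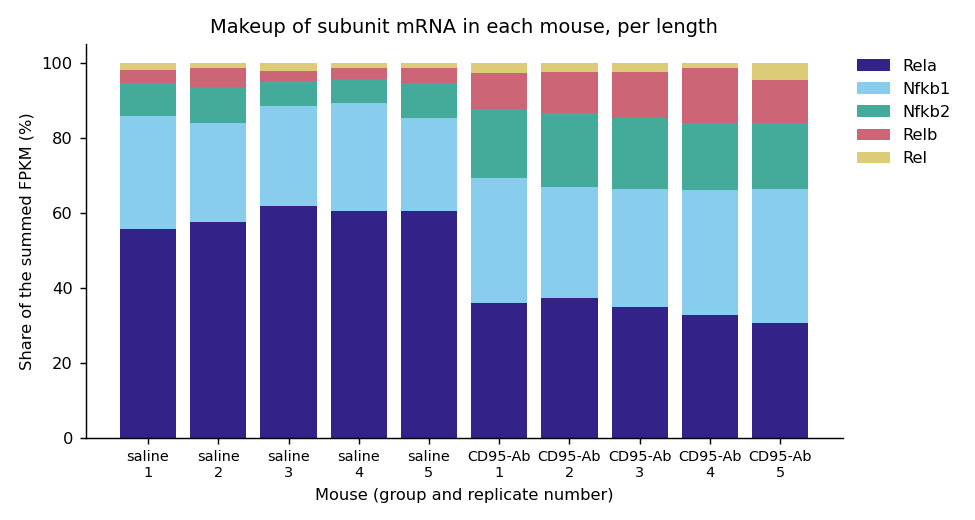
Share (%) of each of the 5 subunit genes in their summed FPKM, as stacked bars for each mouse. Rela makes up between 55.7% and 61.9% of the bar in saline mice and between 30.6% and 37.2% after CD95-Ab, where Nfkb2 and Relb take larger shares.

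Whether genes rose by different amounts was tested with the ratio of their CPM within each mouse, which does not depend on how totals are scaled. Of 12 ratios, 9 differed between the groups (2-sided exact permutation test, adjusted p of 0.05 or less over the 12). Relative to Rela, Relb rose by 2.46 on the log2 scale (95% interval from the same test 1.93 to 3.02), Rel by 1.30 (0.74 to 1.98) and Nfkb1 by 0.97 (0.72 to 1.26), each with groups that did not overlap (exact permutation test, p = 0.00794, adjusted 0.0190). Nfkb2 rose more than Nfkb1 by 1.01 (0.55 to 1.43), and Nfkbie more than Nfkbib by 1.23 (0.63 to 1.99), with the same p. These 5 ratios kept an adjusted p of 0.05 or less whichever mouse was left out. With a pseudocount of 1 instead of 0.1 CPM, the difference for Rel relative to Rela was 0.69 and that for Nfkbie relative to Nfkbib 0.73, both still past the threshold.

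The other 4 differences were smaller relative to their spread. Relb rose more than Rel by 1.16 (95% interval 0.22 to 2.11) and Nfkbia more than Rela by 0.44 (0.09 to 0.77), while Nfkb2 rose less than Relb, with a difference of -0.48 (-0.79 to -0.14), and Nfkbia less than Nfkbie, with -0.92 (-1.55 to -0.30). Each had an adjusted p of 0.0317 in the exact test, which rose to at most 0.0635 with 1 mouse left out. The call was lost without any single mouse except saline replicates 2 and 5 and CD95-Ab replicate 5 for Relb relative to Rel, saline replicates 2 and 5 and CD95-Ab replicate 1 for Nfkb2 relative to Relb, saline replicate 2 for Nfkbia relative to Nfkbie, and saline replicate 5 and CD95-Ab replicate 1 for Nfkbia relative to Rela. With a pseudocount of 1 CPM, the difference was -0.17 for Nfkb2 relative to Relb (adjusted p = 0.208, exact test) and -0.39 for Nfkbia relative to Nfkbie (adjusted p = 0.200, exact test). No difference was detectable between Nfkbib and Rela (0.14, interval -0.08 to 0.38, exact p = 0.214), between Nfkbia and Nfkbib (0.30, interval -0.07 to 0.66, adjusted exact p = 0.104) or between Nfkbiz and Bcl3 (0.87, interval -0.14 to 1.86, adjusted exact p = 0.104). Without CD95-Ab replicate 1, the ratio of Nfkbia to Nfkbib did pass, with a difference of 0.42 and an adjusted p of 0.0476 in the exact test.

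**Figure D4:**
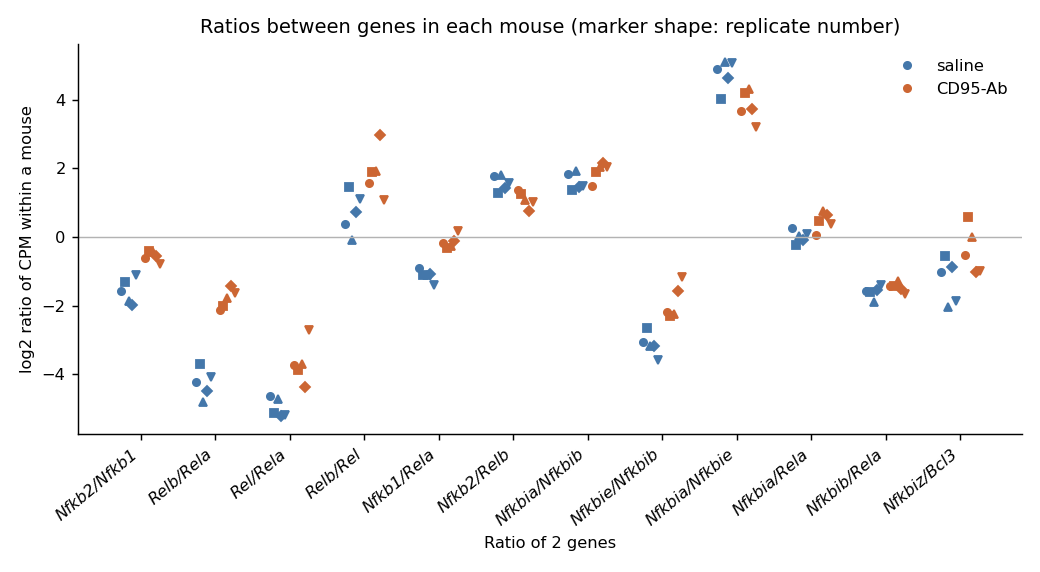
Log2 ratio of the CPM of 2 genes within each saline (blue) and CD95-Ab (orange) mouse, for the 12 ratios tested; marker shape gives the replicate number and the grey line marks equal CPM, not equal levels per length. The ratio of Relb to Rela moves most, from a mean of -4.26 to -1.79, while that of Nfkbib to Rela stays between -1.89 and -1.28.

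Genes that act upstream of the subunits were called in shares nearer to those of all tested genes, of which 25.4% were higher, 22% lower and 47.3% either. Of 12 genes for activating kinases and their partners, 5 rose, 1 fell and 6 did not pass the test, with a median log2 fold change of 0.24. The largest increases were those of Ikbke, which encodes an IκB kinase related to Tbk1 (16.2 ± 3.7 against 209 ± 98 CPM; log2 fold change 3.69 ± 0.31), Map3k8, a kinase held by the uncut Nfkb1 product (2.58 ± 0.29), and Map3k14, the kinase that starts the alternative pathway (2.31 ± 0.21). The 3 subunits of the classical IκB kinase complex, Chuk, Ikbkb and Ikbkg, did not pass the test, and Ikbkg had a log2 fold change of -0.27 (FDR = 0.206). Tab1, an adaptor of the kinase Map3k7, fell by 0.44 on the log2 scale (FDR = 0.0411), a call that was lost with no filter on low counts, and without any single mouse except saline replicate 3 and CD95-Ab replicate 4. In the ubiquitin machinery of the pathway, 7 of 14 genes rose and 1 fell, beside 25.4% higher and 22% lower among all tested genes. Birc3 rose by 2.57 on the log2 scale, Birc2 by 1.54 and Traf3 by 1.37, and their products are known to keep Map3k14 protein low in resting cells. Rbck1, a part of the linear ubiquitin ligase, had a log2 fold change of -0.23 (FDR = 0.128), and Btrc, which marks phosphorylated IκB for destruction, fell by 0.55 (FDR = 0.00193).

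Of 14 brakes of the pathway other than IκB proteins, 7 were higher and 2 lower, beside 25.4% and 22% of all tested genes. The largest increases were those of the ubiquitin editing gene Tnfaip3 (log2 fold change 5.29 ± 0.25), its partner Tnip1 (2.50 ± 0.14) and Zc3h12a, which encodes a ribonuclease that degrades inflammatory mRNAs (2.02 ± 0.26). Itch, a ubiquitin ligase that works with Tnfaip3, fell by 0.67 on the log2 scale (FDR = 0.00543), and Nkiras2, which encodes a small GTPase-like protein that binds IκB, by 0.44 (FDR = 0.0157). Outside the 10 genes, Nfkbid, a further nuclear IκB gene, had 0.40 ± 0.21 CPM in saline mice and 3.96 ± 2.85 CPM after CD95-Ab (log2 fold change 3.30 ± 0.48, FDR = 0.000184), with 9.04 CPM in CD95-Ab replicate 4 and between 2.25 and 2.92 CPM in the others. Nfkbil1, named for a resemblance to IκB, went from 4.97 ± 0.81 to 3.91 ± 1.11 CPM and did not pass the test (FDR = 0.184).

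The list of textbook targets of NF-κB was chosen with earlier results of these data known, so its counts are description only. Of its 30 genes 26 were tested, and all 26 were higher, beside 25.4% of all tested genes. Some of these passed the filter on low counts only through the CD95-Ab mice. Of the 18 with at least 10 counts in every saline mouse, all 18 were higher, with a median log2 fold change of 2.70, whereas 22.6% of all 12590 genes with such counts were higher and their median was -0.04. The highest fitted values were those of Cxcl2, a chemokine for neutrophils (0.12 ± 0.08 to 43.1 ± 26.4 CPM), Sele, an endothelial adhesion molecule (0.05 ± 0.04 to 14.3 ± 6.5 CPM), and Ccl2, a chemokine for monocytes (0.54 ± 0.39 to 137 ± 51 CPM). The smallest were those of Irf1, a transcription factor of the interferon response (log2 fold change 1.46 ± 0.32), and Sod2, the mitochondrial superoxide dismutase (1.38 ± 0.15). Ccl20, Csf2, Csf3 and Ptx3 had too few counts to be tested.

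**Figure D5:**
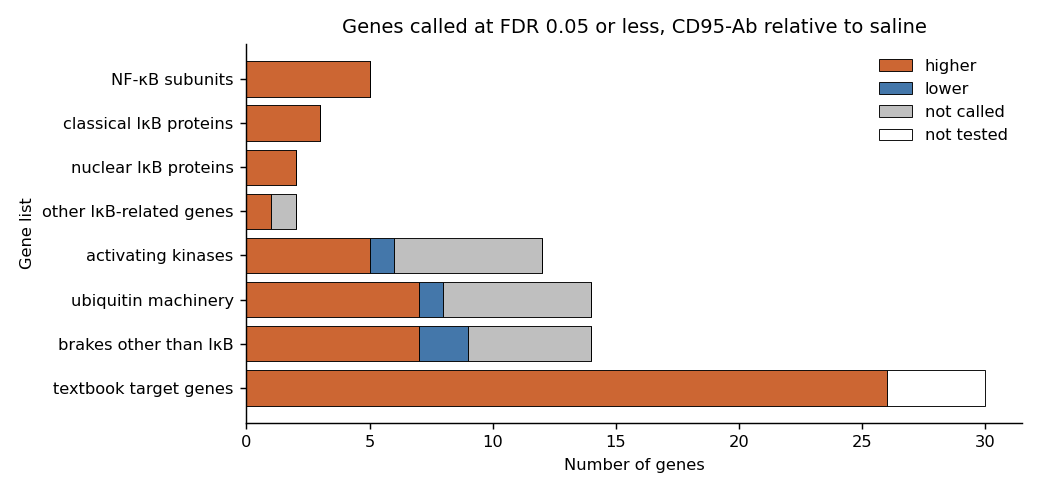
Number of genes in each list that were higher, lower, not called or not tested in CD95-Ab relative to saline mice (edgeR, FDR of 0.05 or less). The bars of the subunits and of the classical and nuclear IκB lists consist only of genes called higher, as does the tested part of the target list, while kinases, ubiquitin machinery and other brakes hold 6, 6 and 5 genes that were not called.

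Over the 10 mice, the genes whose profile of log2 CPM lay closest to that of each of the 10 genes were sought by the root mean square difference after centring each gene on its own mean. The 2 closest genes were Tnip1 and Zfp462 for Nfkb1 (0.13 and 0.18), Tpm4 and P2ry10 for Nfkb2 (0.21 and 0.22), Ecscr and Ripor2 for Rel (0.23 and 0.27), Pgs1 and Nle1 for Rela (0.13 and 0.14), and Icam1 and Ikbke for Relb (0.20 and 0.26). Among the inhibitors, they were Impdh1 and Rps6ka2 for Nfkbia (0.18 and 0.23), Mafk and Stap2 for Nfkbib (both 0.14), Birc3 and Tnip1 for Nfkbie (0.24 and 0.25), Ccn1 and Map3k8 for Nfkbiz (0.26 and 0.32), and 4930503L19Rik and Myct1 for Bcl3 (0.28 and 0.29). This measure is dominated by the difference between the groups, so that genes with a like fold change lie close.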

How the data were processed

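Liver RNA of 5 saline-injected and 5 CD95-Ab-injected mice was analysed, grouped by the sample titles. The authors prepared TruSeq libraries and assigned paired reads to genes with RSEM 1.2.19. The deposited expected counts carry no normalization and needed no rounding. The deposited FPKM values, in which RSEM corrected for length and total, served only for shares and levels between genes. The paper names a human annotation release, although the identifiers are mouse Ensembl; the genome build is not given in the sources used here. Symbols and positions came from GENCODE mouse release M21 (GRCm38), which named 37606 of 38922 identifiers, and promoters from RefSeq.

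Genes were kept by filterByExpr (minimum count of 10), scaled by TMM and tested for group alone by quasi-likelihood in edgeR (version 4.0.16, under R 4.3.3), with Benjamini-Hochberg adjustment over all tested genes. CPM are counts per 1000000 of the TMM-adjusted total. The standard error was derived from the F statistic. Ratios used a pseudocount of 0.1 CPM. Ratios and shares were compared by 2-sided exact permutation tests (scipy 1.17.1), with 95% intervals from shifting one group in steps of 0.01, adjusted over the 12 ratios or 5 shares. On simulated counts for this comparison, 99% of genes changed by a log2 fold of 2 and 62% of those changed by 1 were recovered. Only a small part of the genes was changed in that simulation, as many up as down and none of low mean CPM. In these data 47.3% of tested genes were called, so the recovery need not hold here. Alternatives were DESeq2 1.42.0, limma 3.58.1 on FPKM, the likelihood ratio test, other factors, filters and pseudocounts, a block for replicate number, and fits lacking 1 mouse each.

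Named genes were the 10 members, the 3 highest and 2 lowest log2 fold changes of each pathway list, both further IκB-related genes and the nearest profiles. Chuk, Ikbkb, Cd5l, Marco, Rn7sk, Rpph1, Hist1h1c, Hist1h2bc, overlapping and untested genes were named after their values were seen. The members and lists were chosen with earlier results of these data known. Counting error alone underlies the count floor. The labels call the mice biological replicates. Counts between mice of a group differed by more than sampling noise (chi-square per degree of freedom of at least 39.4).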

Additional observations from a re-analysis of the deposited data

Results flagged for a closer look

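Among 54 sets of 5 values (10 genes in CPM, 12 ratios and 5 shares, in each group), 3 held a mouse whose gap to the nearest other mouse exceeded 0.71 of the range of its group; about 1 in 20 would do so by chance. Bcl3 had 69.3 CPM in saline replicate 5, compared to 32.2 CPM in the next mouse and 17.2 CPM in the lowest. Bcl3 also had 209.5 CPM in CD95-Ab replicate 4, compared to 115 CPM in the next mouse. Nfkbib had 17.1 CPM in saline replicate 5, compared to 12.5 CPM in the next mouse and 10.99 CPM in the lowest. In FPKM, without TMM adjustment, that mouse had 12.4 for Nfkbib, compared to 11.5 in the next and 9.53 in the lowest. The FPKM of Bcl3 were 37.6, 19.8 and 11.8 in the highest, next and lowest saline mouse, and 122, 77.3 and 51.3 after CD95-Ab. The rule was not applied to the FPKM of single genes. Saline replicate 5 had the largest total, 62097636 counts.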

How the results depend on the processing

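All 10 genes were called higher, and none lower, under each of the 19 alternatives, with DESeq2, the likelihood ratio test and limma on FPKM among them. The number past the log2 threshold of 2 was 6 in all alternatives except without saline replicate 5, where Bcl3 made it 7. Log2 fold changes of single genes stayed between 1.22 (Rela) and 3.97 (Relb), and the median of all tested genes between -0.07 and 0.08. Mice with the same replicate number did not deviate together (correlations of -0.274 to 0.257 in 5 pairs, mean 0.037, compared to -0.006 for other pairs, and 2 of 5 saline mice closest to their own number), so the numbers were not taken as pairs. In the fit with a replicate block, 10 genes were higher and 6 passed both thresholds, while 0 of 12 ratios and 0 of 5 shares could pass, since the smallest p that 5 pairs allow is 0.0625. Leaving out 1 mouse at a time, 5 to 8 ratios and 4 to 5 shares passed in an exact test with less room for small p-values, and between 0 and 1 kinase genes were lower. That gene, Tab1, was also lost with no filter on low counts and with the block (0 lower in each). Requiring 10 counts in every mouse removed Nfkbid from the test, which left 0 further IκB-related genes higher. Across the alternatives, 4 to 5 kinase genes, 5 to 7 genes of the ubiquitin machinery and 5 to 7 other brakes were higher. With no normalization factors, 5 of 14 were higher in both the ubiquitin machinery and the other brakes. Depth limits Rel, Relb and Nfkbie most, with as few as 23, 40 and 34 counts in a saline mouse.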
